A study of Mus musculus with 8 samples.

Results

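The genes described here are 9 receptors that direct leukocytes into gut, skin and inflamed tissue: Gpr15, Ccr2, Ccr4, Ccr8, Ccr9, Ccr10, Cxcr3, Cxcr6 and Cx3cr1. They were chosen by gene symbol, and each has 1 row among the 24421 genes of the count table. They were measured by RNA sequencing of T follicular regulatory (TFR) cells of the spleen, a regulatory T cell type that enters B cell follicles, sorted as Foxp3-YFP+ CXCR5+ PD1+. Mice with floxed Blimp1 and a Foxp3-cre (Blimp1-flox, n = 4 libraries) were set against WT mice (n = 4 libraries). Mice of both genotypes had been given peanut with cholera toxin by mouth 2 times, and spleens were taken on day 36 after challenge. Foxp3-cre acts in every Foxp3-expressing cell, so Blimp1 is targeted in other regulatory T cells of these mice too. Whether WT mice carried the Cre, whether 1 or both Blimp1 alleles were floxed, the age of the mice, and whether each library came from its own mouse are not given in the sources used here. The p-values below therefore reflect how these libraries vary, which may in part be technical.

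Chemokine receptors are G protein-coupled receptors that sense chemokines laid down by endothelium and epithelium, and the set a T cell carries helps decide which tissue it enters. GPR15, a relative of the chemokine receptors, and CCR9 are known for entry into the large and the small intestine. CCR4, CCR8 and CCR10 are known for entry into skin, and CXCR3, CXCR6, CCR2 and CX3CR1 for entry into inflamed tissue. TFR cells are defined by CXCR5, which directs cells to the follicle, so these receptors mark routes other than the follicular one.

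Library totals ran from 16425538 to 27595939 counts in Blimp1-flox and from 22788722 to 26279365 counts in WT libraries. Levels are given as CPM, read counts scaled to a common library size and corrected by TMM factors. Prdm1, the gene that encodes Blimp1, held 7.53 to 16.6 CPM in Blimp1-flox and 31.8 to 71.0 CPM in WT libraries, so each library lay on the side of its label. All 8 TFR markers had counts in every library, with summed levels of 5577 to 6620 CPM in Blimp1-flox and 5254 to 6495 CPM in WT cells. Foxp3 was a small part of these sums, at 55.7 to 75.5 CPM in Blimp1-flox and 72.5 to 105 CPM in WT libraries. Its log2 fold change of -0.40 did not pass (edgeR adjusted p = 0.176, unadjusted p = 0.00775). Of the 8 markers 5 had a log2 fold change above 0 and 3 below, and none was called. B cell markers differed between libraries: the 10 genes summed to 204.6 to 274.9 CPM in Blimp1-flox and 232.5 to 796.8 CPM in WT cells, the highest in WT 4. The sums of CD8 T and NK cell markers did not overlap between the groups, at 49.5 to 51.7 CPM in Blimp1-flox and 29.0 to 45.3 CPM in WT libraries. The largest part of each sum was Klrb1c, at 30.7 to 37.45 CPM in Blimp1-flox and 13.5 to 26.6 CPM in WT libraries. Klrb1c did not pass (edgeR adjusted p = 0.1135), and Cd8b1, the next largest, overlapped between the groups. In total reads, Blimp1-flox against WT, Cd8a had 1 and 21, Ncr1 0 and 6, Klrd1 22 and 32, Gzma 95 and 130, and Klrk1 15 and 13. Plasma cell sums (222.3 to 336 CPM in Blimp1-flox, 231.8 to 318 CPM in WT) and pancreas sums (51.8 to 104.7 CPM in Blimp1-flox, 33.2 to 69.6 CPM in WT) overlapped. Xbp1, at 204.3 to 296.4 CPM over all libraries, made up most of the plasma cell sum. Of the same 6 markers Sdc1 rose, with 3.20 to 6.93 CPM in Blimp1-flox and 0.922 to 2.22 CPM in WT libraries (log2 fold change 1.87; edgeR adjusted p = 0.0334). Of the 12363 genes that passed the filter on low counts and were tested, 0.501% were called at an adjusted p under 0.05, 0.259% as higher and 0.243% as lower in Blimp1-flox cells. Of the 15 pancreas markers 12 were tested. All 12 had a log2 fold change above 0, with a median of 0.84, and none was called. Cela1 and Prss2 lay higher in Blimp1-flox without overlap, as did 3.75% of all tested genes. Cela1 was at 39.75 to 67.3 CPM in Blimp1-flox and 27.5 to 34.35 CPM in WT libraries. Prss2 was at 7.48 to 18.1 CPM in Blimp1-flox and 1.19 to 6.35 CPM in WT libraries.

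Gpr15 was the 1 member of the 9 that was called. It rose in Blimp1-flox cells by a log2 fold change of 1.56 ± 0.25 (SE), with a 95% interval from 1.02 to 2.11 (edgeR quasi-likelihood adjusted p = 0.0203). Of the other 8 members, 7 were tested and did not pass, and Ccr10 was too low to test. No member was called lower, 3 of the 8 tested members had an unadjusted p under 0.05 (Gpr15, Ccr4 and Ccr2), as had 16.2% of all tested genes, and the median log2 fold change of the 8 was 0.050, against 0.0012 for all genes tested. DESeq2 called 1 member higher and 0 lower, and limma-voom with quality weights called 2 higher, Gpr15 and Ccr4, and 1 lower, Ccr2. Over all tested genes DESeq2 called 3.66% and limma-voom 4.09%. In bulk RNA, fewer cells with a transcript and less transcript per cell cannot be told apart.

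**Figure D1:**
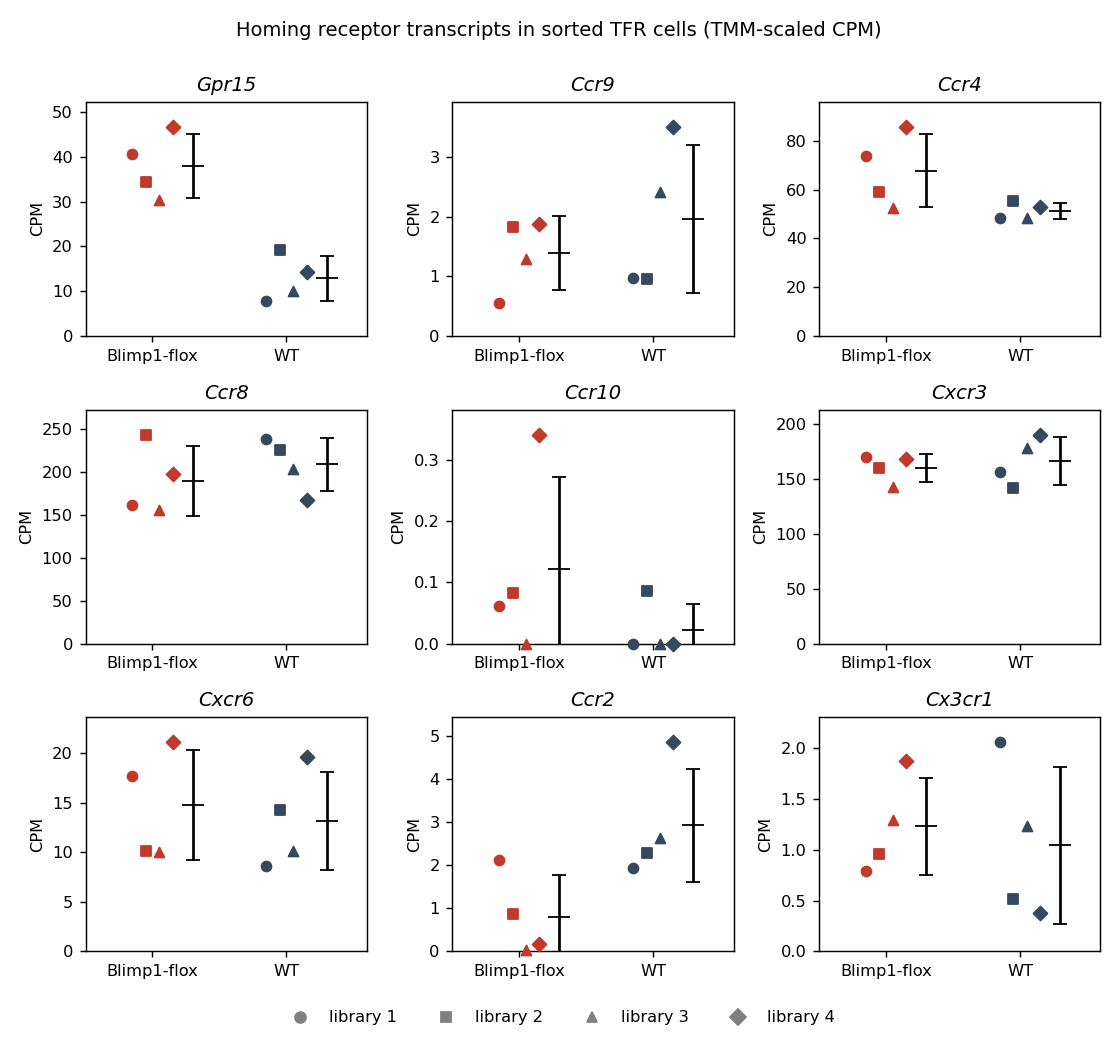
TMM-scaled CPM of the 9 receptors in each library, with Blimp1-flox left of WT, 1 marker shape per library number, and the mean and SD of each group as a black bar (lower ends below 0 are not drawn). Gpr15 is the 1 panel in which the groups do not overlap, at 30.2 to 46.6 CPM in Blimp1-flox and 7.75 to 19.2 CPM in WT libraries.

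The promoters of the 3 members with a match to the core of the Blimp1 motif are printed here, because Blimp1 is a repressor that binds DNA. Of these genes Gpr15 rose in Blimp1-flox cells, and Ccr8 and Cxcr3 did not pass. Each sequence runs from 250 bases before to 50 bases after the transcription start of RefSeq (build GRCm38, the same as mm10), 5′ to 3′ on the strand of the gene, with matches to GTGAAA on either strand in capitals.
Gpr15, minus strand of chr16:58718823-58719122: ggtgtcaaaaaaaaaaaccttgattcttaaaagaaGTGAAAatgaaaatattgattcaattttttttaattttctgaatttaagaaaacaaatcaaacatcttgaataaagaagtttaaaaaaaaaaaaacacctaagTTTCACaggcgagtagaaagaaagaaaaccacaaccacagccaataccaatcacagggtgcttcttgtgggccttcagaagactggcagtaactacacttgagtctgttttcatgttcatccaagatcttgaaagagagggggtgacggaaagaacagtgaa
Ccr8, plus strand of chr9:120091883-120092182: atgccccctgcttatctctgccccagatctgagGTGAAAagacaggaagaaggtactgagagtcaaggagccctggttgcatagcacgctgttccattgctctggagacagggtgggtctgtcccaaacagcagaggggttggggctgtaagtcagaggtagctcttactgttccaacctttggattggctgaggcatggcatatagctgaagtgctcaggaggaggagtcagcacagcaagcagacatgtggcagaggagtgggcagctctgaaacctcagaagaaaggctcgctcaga
Cxcr3, minus strand of chrX:101734098-101734397: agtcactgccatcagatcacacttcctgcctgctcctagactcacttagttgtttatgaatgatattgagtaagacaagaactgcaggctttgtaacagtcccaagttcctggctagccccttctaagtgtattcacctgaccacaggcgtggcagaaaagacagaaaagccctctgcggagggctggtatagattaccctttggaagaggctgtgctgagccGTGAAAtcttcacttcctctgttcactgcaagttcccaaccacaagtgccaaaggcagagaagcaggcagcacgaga
The Gpr15 promoter holds GTGAAA 2 times, 215 and 112 bases before the RefSeq start, the second on the opposite strand. In GENCODE M21, another annotation of this build, Gpr15 starts further upstream, at 58719070 within this window. The second match lies inside that model and the first before it. Ccr8 and Cxcr3 hold it 1 time each, 217 and 27 bases before the start. RefSeq promoters were at hand for 8 of the 9 members, so 3 of 8 hold this core, against 12.9% of the 32851 promoters of 300 bases in the table. The longer form AGNGAAAG, which contains the core where N is T, was in 0 of the 8, against 8.63% of all promoters. The core GCGTG of the aryl hydrocarbon receptor motif was in 3 of 8 (Ccr8, Cxcr3 and Cx3cr1), against 32.4%. These matches are descriptions of letters in a window, and binding was not measured.

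GPR15 carries T cells to the large intestine, where its ligand GPR15L is made by epithelium. Its transcript was at 40.5, 34.3, 30.2 and 46.6 CPM in Blimp1-flox libraries 1 to 4, against 7.75, 19.2, 10.1 and 14.3 CPM in WT libraries 1 to 4. Every Blimp1-flox library lay above every WT library. Gpr15 was the 1 tested member without overlap, while 8.47% of all tested genes had none, 3.75% with Blimp1-flox above and 4.72% with it below. The means were 37.9 ± 7.18 CPM in Blimp1-flox and 12.8 ± 5.05 CPM in WT cells (SD, n = 4 each), a rise of 2.95-fold. These levels rest on 666 to 1095 reads per Blimp1-flox library and 192 to 445 reads per WT library. By p-value Gpr15 ranked 28 among all genes tested.

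**Figure D2:**
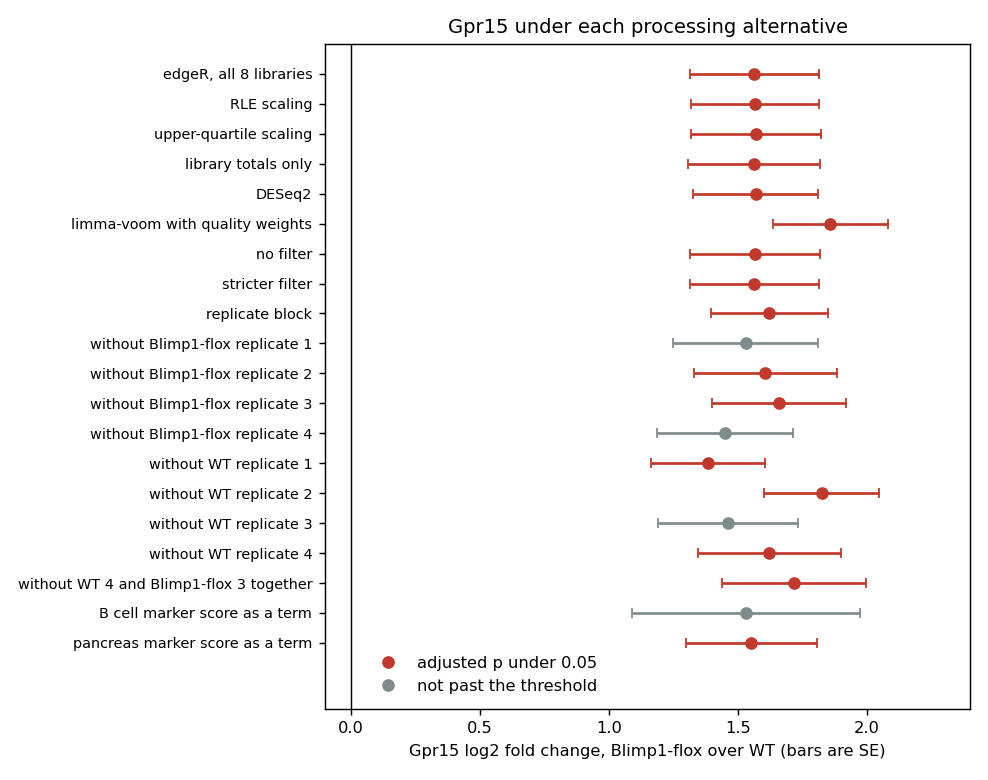
Log2 fold change of Gpr15 (Blimp1-flox over WT) with its SE, in the fit of all 8 libraries and under each of 19 alternatives, in red where the adjusted p was under 0.05. The values lie between 1.38 and 1.86, and 4 alternatives are grey.

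The rise of Gpr15 was between 1.38 and 1.86 on the log2 scale in all 19 processing alternatives, while its call was lost in 4 of them. The call was lost without Blimp1-flox 1 (edgeR adjusted p = 0.1005), Blimp1-flox 4 (0.0755) or WT 3 (0.0527). With the level of B cell markers as a further term the log2 fold change was 1.53 ± 0.44 (SE; edgeR adjusted p = 0.989, unadjusted p = 0.00513). That fit called 0 genes in all, with 551 at an unadjusted p under 0.05, and genotype accounted for 65.2% of the variance of the B cell score, so these terms overlap. Without WT 4, the library with the most B cell transcripts, the log2 fold change of Gpr15 was 1.62 (edgeR adjusted p = 0.0317). The part of the CD8 T and NK cell markers in this result was not tested.

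Gpr15 is a gene of 1 exon in the count table, on chromosome 16 from 58717435 to 58718724, minus strand, in mm10. No other gene of the count table has an exon there. In GENCODE M21, of the same build, 202 of these 1290 bases (15.7%) are also covered by an antisense exon of a non-coding transcript of Cpox, the gene of a haem synthesis enzyme. The strand setting of the counting was not given, so reads from that exon would count for Gpr15 if strand was ignored. The Cpox row of the table, whose exons lie elsewhere, was at 56.2 ± 10.8 CPM in Blimp1-flox and 47.9 ± 4.74 CPM in WT cells (SD, n = 4 each), with a difference of 0.23 on the log2 scale that did not pass (edgeR adjusted p = 0.437). The part of that transcript in the counts of Gpr15 was not tested. The GENCODE model of Gpr15 also extends 346 bases past the 5′ end of the one counted, and reads from there were not in the table's row.

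CCR9, the receptor of CCL25 of the small intestine, was a low transcript. Ccr9 was at 0.547, 1.83, 1.29 and 1.87 CPM in Blimp1-flox libraries 1 to 4, against 0.969, 0.951, 2.41 and 3.51 CPM in WT libraries 1 to 4. The groups overlapped, Blimp1-flox 1 was the lowest library and WT 4 the highest. On the log2 scale the difference was -0.49, with a 95% interval from -1.57 to 0.59, and did not pass (edgeR adjusted p = 0.663). Without WT 4 and Blimp1-flox 3 it was 4.6e-04, and with the B cell term 0.90. WT 4 was also highest for B cell markers, at 796.8 CPM, and for the 6 markers of plasmacytoid dendritic cells, which use CCR9, at 131.2 CPM. Irf8, at 91.0 CPM, and Spib, at 27.5 CPM, made up most of the latter sum in WT 4. Whether the 2 marker lists rose separately in WT 4 was not tested. Those 6 markers summed to 42.8 to 71.5 CPM in Blimp1-flox and 59.25 to 74.4 CPM in the other WT libraries. Siglech, their most defining gene, was at 0.0608, 0, 0.108 and 0 CPM in Blimp1-flox libraries 1 to 4, against 0, 0.173, 0 and 0.821 CPM in WT libraries 1 to 4. Their part in the Ccr9 values was not tested. An antisense gene in GENCODE covers 1.28% of the exon bases of Ccr9. Of the 2 intestinal receptors, then, Gpr15 rose and Ccr9 did not pass.

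Among the skin-directed receptors, CCR4 binds CCL17 and CCL22 and is used by many regulatory T cells. Ccr4 was at 73.8, 59.1, 52.5 and 85.8 CPM in Blimp1-flox libraries 1 to 4, against 48.4, 55.3, 48.5 and 52.9 CPM in WT libraries 1 to 4. The WT libraries lay close together, the Blimp1-flox libraries were spread more widely, and Blimp1-flox 3 lay within the WT range. The means were 67.8 ± 14.9 CPM in Blimp1-flox and 51.3 ± 3.43 CPM in WT cells (SD, n = 4 each). The difference was 0.40 ± 0.14 (SE) on the log2 scale, with a 95% interval from 0.098 to 0.71, and was not called (edgeR adjusted p = 0.204). Of the 19 alternatives only limma-voom called it, at 0.57 (adjusted p = 0.0416).

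CCR8 is the receptor of CCL1 and in mice of CCL8. Its transcript had the highest mean CPM of the 9 in both groups, though Cxcr3 was above it in Blimp1-flox 1 and WT 4. Ccr8 was at 161.3, 243.7, 156.3 and 197.8 CPM in Blimp1-flox libraries 1 to 4, against 238.6, 225.9, 204.2 and 167.1 CPM in WT libraries 1 to 4. The groups overlapped, with Blimp1-flox 2 the highest of all libraries. Ccr8 differed by -0.14 on the log2 scale, with a 95% interval from -0.46 to 0.19 (edgeR adjusted p = 0.684), an interval that leaves out a change of 1.5-fold in either direction.

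CCR10 binds CCL27 of skin and CCL28 of mucosal epithelium. Ccr10 had 1, 2, 0 and 8 reads in Blimp1-flox libraries 1 to 4, against 0, 2, 0 and 0 reads in WT libraries 1 to 4. It failed the filter and was not tested with the others. In a fit with no filter it did not pass (edgeR adjusted p = 0.506, unadjusted p = 0.134). A count of 0 allows up to 3 reads, or 0.108 to 0.182 CPM in Blimp1-flox and 0.112 to 0.132 CPM in WT libraries, so differences below this were not detectable. These limits cover counting error only.

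Among the receptors of inflamed tissue, CXCR3, which binds CXCL9, CXCL10 and CXCL11, was high and even. Cxcr3 was at 170.1, 159.9, 142.1 and 167.9 CPM in Blimp1-flox libraries 1 to 4, against 155.8, 141.7, 178.3 and 190.2 CPM in WT libraries 1 to 4. The groups overlapped almost wholly. The log2 fold change was -0.058 with a 95% interval from -0.29 to 0.17 (edgeR adjusted p = 0.827), the narrowest interval of the members. Tbx21, the gene of T-bet, a factor known to act on Cxcr3, was at -0.66 on the log2 scale and was not called (edgeR adjusted p = 0.153).

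CXCR6 binds CXCL16 and is known from T cells resident in liver and lung. Cxcr6 was at 17.8, 10.2, 9.998 and 21.1 CPM in Blimp1-flox libraries 1 to 4, against 8.64, 14.3, 10.2 and 19.7 CPM in WT libraries 1 to 4. In both groups the library numbered 4 was the highest, and the groups overlapped throughout. The log2 fold change was 0.16 with a 95% interval from -0.50 to 0.81 (edgeR adjusted p = 0.833). CX3CR1, the receptor of fractalkine, was low: Cx3cr1 was at 0.791, 0.956, 1.29 and 1.87 CPM in Blimp1-flox libraries 1 to 4, against 2.06, 0.518, 1.23 and 0.373 CPM in WT libraries 1 to 4. The WT libraries spanned the whole Blimp1-flox range, and the 95% interval of the log2 fold change of 0.24 ran from -0.91 to 1.397 (edgeR adjusted p = 0.858).

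CCR2, the receptor of CCL2, is best known from monocytes and is also found on effector T cells. Ccr2 had 35, 21, 1 and 4 reads in Blimp1-flox libraries 1 to 4, against 48, 53, 60 and 130 reads in WT libraries 1 to 4. This gave 2.13, 0.873, 0.0360 and 0.170 CPM in Blimp1-flox cells, against 1.94, 2.29, 2.63 and 4.85 CPM in WT cells. Blimp1-flox 1 lay within the WT range, and the other Blimp1-flox libraries lay below every WT library. Ccr2 differed by -1.94 ± 0.80 (SE) on the log2 scale, with a 95% interval from -3.70 to -0.17, and was not called (edgeR adjusted p = 0.273, unadjusted p = 0.0342). Of the 19 alternatives only limma-voom called it, at -3.14 (adjusted p = 0.0195). In the others its value ran from -3.03 without Blimp1-flox 1 to -0.51 with the B cell term, and it was -1.17 without WT 4 and Blimp1-flox 3. Ccr2 reached the level of the filter, 0.419 CPM, in 2 Blimp1-flox and all 4 WT libraries, so it was kept through the WT group. The 13 markers of monocytes and macrophages summed to 101.5, 46.7, 12.5 and 91.25 CPM in Blimp1-flox libraries 1 to 4, against 26.4, 31.5, 47.1 and 34.25 CPM in WT libraries 1 to 4. B cell markers were highest in WT 4, as was Ccr2. The part of either marker list in the Ccr2 values was not tested.

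**Figure D3:**
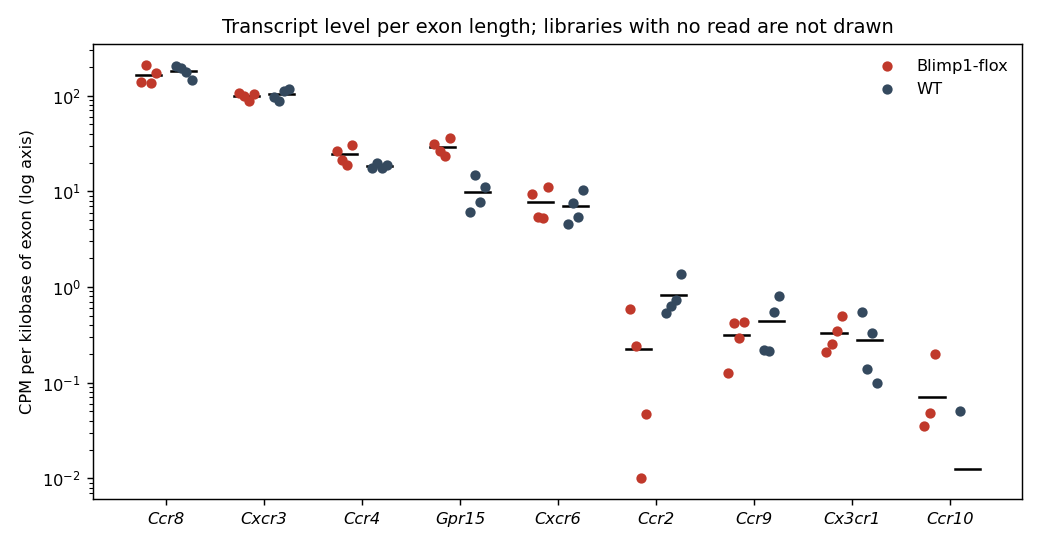
CPM per kilobase of exon on a log axis for the 9 receptors, ordered by their WT mean, with Blimp1-flox left of WT, a point per library with at least 1 read and a black line at the mean of the 4 libraries. Ccr8 and Cxcr3 lie highest in both groups, and Gpr15 lies above Ccr4 in Blimp1-flox and below it in WT cells.

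To compare levels between genes, CPM was divided by the exon length in kilobases. On this scale Ccr8 averaged 164 ± 35.0 in Blimp1-flox and 181 ± 27.1 in WT cells, and Cxcr3 averaged 99.5 ± 7.90 in Blimp1-flox and 103 ± 13.6 in WT cells (SD, n = 4 each). Ccr8 was above Cxcr3 within each of the 4 Blimp1-flox and 4 WT libraries. Below them came Gpr15 and Ccr4. Gpr15 averaged 29.4 ± 5.57 in Blimp1-flox and 9.95 ± 3.92 in WT cells per kilobase, and Ccr4 averaged 24.3 ± 5.35 in Blimp1-flox and 18.4 ± 1.23 in WT cells. Between libraries these levels overlapped in Blimp1-flox, while in WT the ranges of the 2 genes did not overlap. Cxcr6 followed at 7.80 ± 2.94 in Blimp1-flox and 6.97 ± 2.60 in WT cells, and its range overlapped that of Gpr15 in WT libraries only. Ccr2, Ccr9 and Cx3cr1 averaged 0.223 to 0.327 per kilobase in Blimp1-flox and 0.278 to 0.816 in WT cells, with ranges that overlapped each other in both groups. Ccr10 was lowest, at 0.0703 in Blimp1-flox and 0.0125 in WT cells.

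Per kilobase, the order of Gpr15 and Ccr4 differed between the genotypes. Within a library, the level of Gpr15 per kilobase divided by that of Ccr4 was 1.19, 1.25, 1.24 and 1.18 in Blimp1-flox libraries 1 to 4, against 0.346, 0.751, 0.448 and 0.584 in WT libraries 1 to 4. Gpr15 was thus above Ccr4 per kilobase in 4 of 4 Blimp1-flox and 0 of 4 WT libraries. In CPM, not divided by length, Gpr15 was below Ccr4 in every library. The ratio per kilobase does not depend on the scaling of the libraries, but it depends on the exon lengths, 1290 bases for Gpr15 and 2787 for Ccr4. Its mean was 1.21 ± 0.0397 in Blimp1-flox and 0.532 ± 0.175 in WT cells (SD, n = 4 each), so the Blimp1-flox libraries were also closer to each other. As a share of the summed CPM of the 9 receptors, Gpr15 made up 6.71% to 8.91% in Blimp1-flox and 1.67% to 4.18% in WT libraries. The sum itself was 393.8 to 523.5 CPM in Blimp1-flox and 452.8 to 464.1 CPM in WT libraries, so the groups overlapped.

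**Figure D4:**
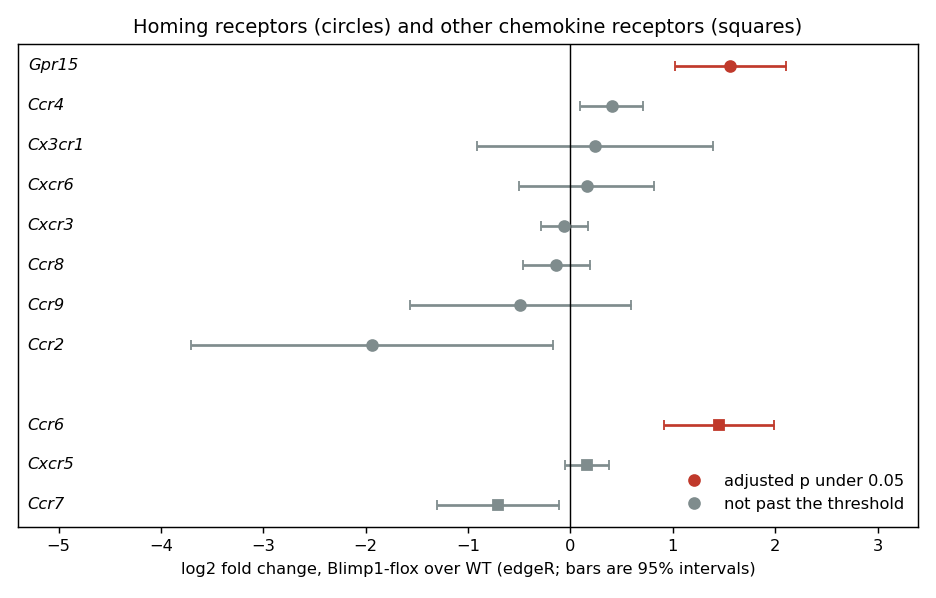
Log2 fold changes (Blimp1-flox over WT) with 95% intervals for the 8 tested homing receptors, as circles, and for Ccr6, Ccr7 and Cxcr5, the other chemokine receptors named in the text, as squares, in red where the edgeR adjusted p was under 0.05. Gpr15 at 1.56 and Ccr6 at 1.45 are red, and Ccr2 at -1.94 has the widest interval, from -3.70 to -0.17.

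The other chemokine receptors were taken as a list of 17 genes, of which 8 passed the filter. Ccr6, the receptor of CCL20, rose, none was lower and 7 did not pass, while 0.501% of all tested genes were called. In edgeR 4 of the 8 had an unadjusted p under 0.05, against 16.2% of all tested genes. DESeq2 called 1 of the 8 and limma-voom 3, against 3.66% and 4.09% of all tested genes. Ccr6 was at 110, 47.9, 70.6 and 89.9 CPM in Blimp1-flox libraries 1 to 4, against 22.6, 33.0, 24.8 and 35.9 CPM in WT libraries 1 to 4, so the groups did not overlap. Its log2 fold change was 1.45 ± 0.24 (SE; edgeR adjusted p = 0.0334), a call that 7 of 19 alternatives did not give. The median of the 8 was -0.076, against 0.0012 for all genes tested. Cxcr5, which was part of the sorting gate, was at 0.16 on the log2 scale and did not pass (edgeR adjusted p = 0.450). Ccr7, which directs cells to the T cell zone, was at -0.71 and did not pass (edgeR adjusted p = 0.248), though 4 of 19 alternatives called it.

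Of the 9 members, 6 lie on chromosome 9. Cx3cr1 and Ccr8 are 23.8 kb apart and Ccr9 and Cxcr6 23.0 kb apart, and none of these 4 genes passed the test.

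The ligands of the 9 receptors were mostly not detected at a testable level, with 6 of 17 tested. None was called by edgeR, DESeq2 or limma-voom, and 2 of the 6 had an unadjusted p under 0.05 in edgeR (16.2% of all tested genes), Ccl5 with a log2 fold change of -0.89 and Cxcl10 with -0.33. Cxcl10, a ligand of CXCR3, was at 88.7 ± 18.8 CPM in Blimp1-flox and 112 ± 16.4 CPM in WT cells (SD, n = 4 each). Ccl25, the ligand of CCR9, was at 5.81 ± 0.933 CPM in Blimp1-flox and 5.11 ± 0.378 CPM in WT cells (SD, n = 4 each).

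Adhesion partners of homing, such as integrin chains, selectin ligands and the enzymes that glycosylate them, were tested for all 14 genes listed. None was called by edgeR, and 4 of the 14 had an unadjusted p under 0.05, against 16.2% of all tested genes. DESeq2 and limma-voom called 1 each, against 3.66% and 4.09% of all tested genes. The median log2 fold change was 0.035, against 0.0012 for all genes. Itga4 and Itgb7 encode the chains of the gut-homing integrin. Itga4 was at -0.50 on the log2 scale (edgeR adjusted p = 0.222) and Itgb7 at 0.28 (edgeR adjusted p = 0.264), and neither passed. Gcnt1, which builds core 2 O-glycans of selectin ligands, was at 9.25, 9.31, 6.83 and 9.80 CPM in Blimp1-flox libraries 1 to 4, against 3.96, 2.98, 5.36 and 4.33 CPM in WT libraries 1 to 4. The groups of Gcnt1, named after its values were seen, did not overlap, and its log2 fold change of 1.08 ± 0.23 (SE) did not pass (edgeR adjusted p = 0.0579), though 6 of 19 alternatives called it.

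Among 30 genes of signalling downstream of chemokine receptors, 1 was lower, none was higher and 29 did not pass. Over all tested genes 0.501% were called, 0.243% as lower. In edgeR 3 of the 30 had an unadjusted p under 0.05, against 16.2% of all tested genes. DESeq2 and limma-voom called 2 each, against 3.66% and 4.09% of all tested genes. Plcb2, a phospholipase C activated by G protein subunits, fell to 59.55 ± 10.98 CPM in Blimp1-flox cells, against 106 ± 19.5 CPM in WT cells (SD, n = 4 each). Its log2 fold change was -0.83 ± 0.15 (SE; edgeR adjusted p = 0.0360), a call that 6 of 19 alternatives did not give. The median of the list was 0.037. Gnai2, the main inhibitory G protein of chemokine receptors in lymphocytes, was at 0.17 on the log2 scale (edgeR adjusted p = 0.429).

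The list of 20 transcription factors described as acting on homing receptor genes held none called by edgeR and 9 at an unadjusted p under 0.05, against 16.2% of all tested genes. DESeq2 called 5 of the 20 and limma-voom 6, against 3.66% and 4.09% of all tested genes. The log2 fold change was below 0 for 14 of them and above 0 for 6, and the median was -0.24, against 0.0012 for all genes tested. Ahr, the aryl hydrocarbon receptor, which is known to act on Gpr15, was at -0.26 on the log2 scale (edgeR adjusted p = 0.472).

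**Figure D5:**
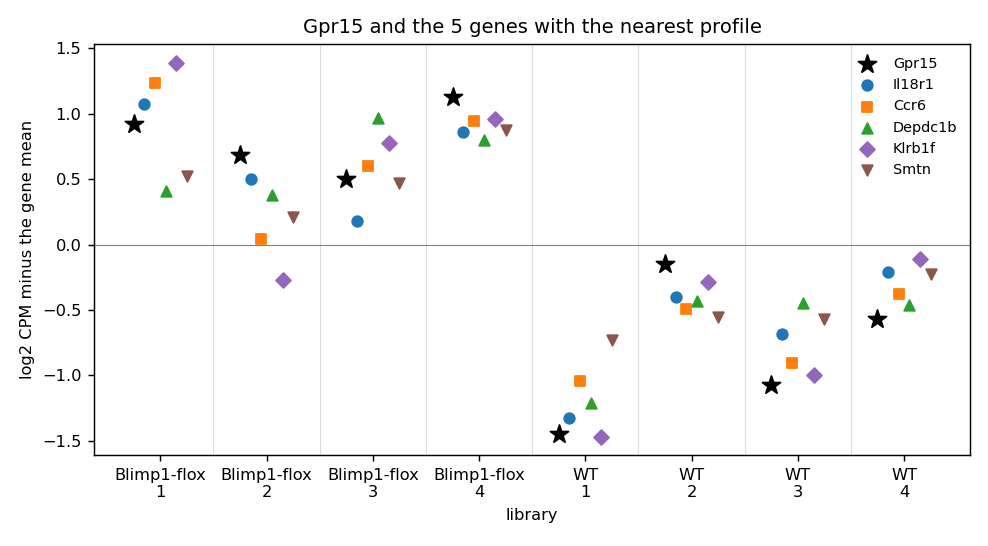
Log2 CPM minus the mean of the gene over the 8 libraries for Gpr15 (black stars) and the 5 genes with the nearest profile, with Blimp1-flox libraries left of WT libraries. In all but 1 of the points, Blimp1-flox values are above 0 and WT values below 0, the exception being Klrb1f in Blimp1-flox 2. The 5 genes were picked by this likeness in the same libraries, so the pattern largely follows from the choice.

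The genes with the profile most like that of Gpr15 were found among 10233 expressed genes by the root mean square difference of log2 CPM, each gene centred on its mean over the 8 libraries. Il18r1, a receptor chain of IL-18, was nearest at 0.273 log2 units, followed by Ccr6 at 0.337, Depdc1b at 0.393, Klrb1f at 0.429 and Smtn at 0.434. The median over all candidates was 0.917. Il18r1 was at 13.1, 8.82, 7.01 and 11.3 CPM in Blimp1-flox libraries 1 to 4, against 2.42, 4.67, 3.82 and 5.34 CPM in WT libraries 1 to 4, and its log2 fold change of 1.31 did not pass (edgeR adjusted p = 0.0579). Depdc1b and Smtn passed with log2 fold changes of 1.29 and 1.05 (edgeR adjusted p = 0.0418 and 0.0124), and Klrb1f did not, with 1.47 (0.106). The measure covers the difference between genotypes as well as the spread within them. Because the 5 genes were picked by it in the same libraries, their rises largely follow from the choice.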

How the data were processed

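The data are 4 Blimp1-flox and 4 WT mRNA libraries of sorted TFR cells. Per the submitters' processing notes, STAR 2.5.2b aligned the reads (mm10) and featureCounts of Subread 1.5.1 counted them. The deposited table holds unnormalized read counts and each gene's exon length, which was used to divide levels by length. Annotation, strand and multi-mapping settings are not given in the sources used here.

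Genes were kept with filterByExpr of edgeR (minimum count 10) and scaled by TMM (factors 0.976 to 1.02). Genotype alone was tested with edgeR 4.0.16 (R 4.3.3; quasi-likelihood, robust estimation), with p-values adjusted by Benjamini-Hochberg over all 12363 genes tested and a call at an adjusted p under 0.05. Unless another tool is named, each adjusted p of a gene comes from it. The SE of a log2 fold change is its size divided by the root of F. Alternatives were other scalings and filters, a replicate block, marker scores as terms, and leaving out libraries. Centred log2 CPM used a prior count of 2. DESeq2 1.42.0 and limma-voom (limma 3.58.1) were further alternatives, 19 in all. Thresholds of 0.01 and 0.10 on the adjusted p were applied apart from these 19, and Gpr15 was not called at 0.01.

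The members and gene lists were chosen with earlier results of these data known. Named genes are the 9 members, Prdm1, called genes of the 5 lists and the 5 profiles nearest to Gpr15 (mean log2 CPM of at least 1, with a gene symbol of their own). Genes named after their values were seen, or named from a list without being called, are given with their result. Results for some genes are not reported here. No 2 libraries of the same group agreed within sampling noise. Sequences come from RefSeq, GRCm38.p6.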

Additional observations from a re-analysis of the deposited data

Results flagged for a closer look

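Ccr10 was at 0.0864 CPM (2 reads) in WT 2 and had 0 reads in each of the other WT libraries. It was the 1 case among 18 groups of 4 libraries examined (9 receptors in each genotype) in which the gap to the nearest library took a larger part of the group's range than Dixon's 95% critical value for 4 libraries allows. With 3 libraries at 0 any other count would have met this criterion, and 2 reads are below the 3 that a count of 0 allows, so these libraries are not told apart at this depth. Chance flags about 1 in 20 such groups.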

How the results depend on the processing

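Over 19 alternatives Gpr15 kept its sign and, in 15 of them, its call. Its log2 fold change was 1.38 to 1.82 with 1 library left out and 1.53 with the B cell term. The number of receptors called higher was 0 with the B cell term and at an adjusted p under 0.01, 2 in limma-voom with quality weights, and 0 to 1 with 1 library left out. The number called lower was 1 in limma-voom and 0 in all other alternatives. The count of all genes called, 62, was 16 at an adjusted p under 0.01, 182 at 0.10, 453 in DESeq2, 506 in limma-voom, 157 without WT 4 and Blimp1-flox 3, 583 with the level of pancreas markers as a term, 0 with the B cell term, and 20 to 127 with 1 library left out (20 without Blimp1-flox 1, 23 without Blimp1-flox 4, 27 without WT 2, 94 without Blimp1-flox 3, 127 without WT 1). The cause was not tested.

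The sign turned for members near 0. With 1 library left out, Cxcr6 ran from -0.068 to 0.42, Cx3cr1 from -0.042 to 0.81 and Cxcr3 from -0.13 to 0.012. These turns came without Blimp1-flox 4 (Cxcr6 -0.068, Cx3cr1 -0.031), WT 1 (Cxcr6 -0.0025) or WT 4 (Cxcr3 0.012, Cx3cr1 -0.042). Without WT 4 and Blimp1-flox 3, Ccr9 was at 4.6e-04, Cxcr3 at 0.064 and Cx3cr1 at -0.064. With the B cell term they were at 0.90, 0.19 and -1.26. Prdm1 was not called without Blimp1-flox 1 (edgeR adjusted p = 0.103), with no filter (0.0502) or with the B cell term (0.989).

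No pairing of the samples by library number was seen: deviations of libraries with the same number correlated from -0.108 to 0.153, and 3 of 8 libraries correlated best with their own number. With 4 libraries per group, this cannot exclude a pairing. With a replicate block 52 genes were called, and the log2 fold change of Gpr15 was 1.62 (edgeR adjusted p = 0.0289). Depth limits Ccr10, Ccr2, Cx3cr1 and Ccr9, with at most 130 reads in any library.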

Other observations

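Within the Blimp1-flox group, Gpr15, Ccr4 and Cxcr6 had the same order of libraries, highest in Blimp1-flox 4, then Blimp1-flox 1, 2 and 3. Cxcr6, whose difference between the genotypes did not pass, was at 21.1, 17.8, 10.2 and 9.998 CPM in that order. S100a8 and S100a9, from the monocyte and macrophage markers, and Jchain and Mzb1, from the plasma cell markers, had this order too. Others of these lists did not. Lyz2, Ly6c2, Sdc1 and Derl3 were highest in Blimp1-flox 1, and Csf1r, Adgre1 and Xbp1 in Blimp1-flox 2. How many of all genes have this order was not counted. In Blimp1-flox 4, 1, 2 and 3, S100a8 was at 20.7, 15.3, 2.95 and 0 CPM, S100a9 at 21.3, 14.7, 2.83 and 0.0360 CPM, and Jchain at 81.4, 62.6, 37.2 and 7.19 CPM. The part of these cells in the order of the receptors was not tested. Ccr8 did not have this order, and was highest in Blimp1-flox 2 at 243.7 CPM. In WT libraries Gpr15 was highest in WT 2 at 19.2 CPM, while Ccr4 stayed between 48.4 and 55.3 CPM.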
